A study of Mus musculus with 12 samples.

Results

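Chemokines and interleukins are the secreted signals with which an epithelium calls and instructs immune cells, and the genes described here are the mouse ligands of both families measured in the epithelium of the circumvallate papilla, a taste structure of the posterior tongue. Members were all gene symbols of the deposited tables formed by Cxcl, Ccl or Il and a number with at most 1 further letter, together with Cx3cl1. Of 74 symbols that matched, 4 were receptors (Il7r, Il9r, Il21r and Il23r) and were left out, so that 70 of 52670 symbols remained. They comprised 23 CC chemokines, 14 CXC or CX3C chemokines and 33 interleukins.

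The study sorted papilla epithelial cells of adult Sox2GFP mice, aged 11 to 12 weeks, by the brightness of the reporter. There were 4 bins, called Low, MedLow, HiMed and, for the brightest cells, High, with 3 RNA libraries in each. All 12 libraries carried the reporter allele, and each replicate pooled 7 to 13 mice. Cells without reporter signal were discarded, so the bins cover reporter-positive cells only. Sox2 averaged 55.9 ± 4.77, 76.5 ± 1.05, 145 ± 3.06 and 342 ± 16.4 transcripts per 1e6 (TPM) in the Low, MedLow, HiMed and High bins (SD, n = 3 each). A bin is a mixture of cell types, and in such bulk samples fewer cells of a type and less RNA per cell cannot be told apart. Before sorting, the tissue was held for 45 min at 37 °C in enzymes.

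Chemokines act through G-protein-coupled receptors on leukocytes and are grouped by the spacing of their first cysteines into CC, CXC and CX3C families. The CXC members with a glutamate-leucine-arginine motif attract neutrophils, whereas Cxcl9, Cxcl10 and Cxcl11 are induced by interferon and attract T cells. Among interleukins, those of the interleukin-1 family are made by keratinocytes as precursors, and Il1a and Il33 act as alarm signals when they leave damaged cells. Surface epithelia are also known sources of Il18, Il25 and Il34.

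The libraries held 25.7 M to 55.6 M estimated counts (M, 1e6). Basal keratinocyte markers (Krt5, Krt14, Krt15, Trp63, Itga6, Col17a1 and Dst) summed to 26908 to 27358 TPM per Low library and 3668 to 5537 TPM per High library, and taste bud markers to 692 to 935 TPM in Low and 2636 to 4891 TPM in High. The leukocyte list was led by Lyz2 and S100a8, while its defining markers were low: Ptprc averaged at most 0.0989 TPM in any bin, and Cd3e, Cd3g and Trdc had 0 counts in all 12 libraries. The fibroblast list was led by Dcn alone, with Lum at 0 counts throughout.

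A level of 1 TPM, taken as the mean of at least 1 bin, was reached by 32 of the 70 members: 9 CC chemokines, 10 CXC or CX3C chemokines and 13 interleukins. Of these, 18 reached 10 TPM and 2 reached 100 TPM, namely Cxcl14 and Il33. The members just above the level were Cxcl12 at 1.05 TPM, Il1b at 1.33 TPM and Il11 at 1.40 TPM in their top bins, and those just below were Ccl17 at 0.557 TPM, Ccl4 at 0.491 TPM and Il19 at 0.459 TPM. No count was found in any library for 18 members, among them Il4, Il17a, Il22, Ccl8, Ccl12, Ccl19 and Cxcl15. The type 2 and T cell interleukins Il5, Il13, Il2 and Il17f had counts but stayed under 1 TPM in every bin.

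Along the order of brightness, 27, 24, 23 and 22 members reached 1 TPM in the Low, MedLow, HiMed and High bins. The summed level of the 70 members averaged 443 ± 23.1, 493 ± 87.5, 980 ± 110 and 2173 ± 556 TPM in those bins (SD, n = 3 each). Cxcl14 and Il33 together supplied 8.82% of that sum in Low, 28.1% in MedLow, 49.9% in HiMed and, at the bright end, 83.9% in High. Of the 32 members, 12 had their highest mean in Low, 11 in High, 8 in HiMed and 1 in MedLow. The means rose at every step for 6 members and fell at every step for 8, and 18 followed neither order.

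Differences were tested with edgeR's quasi-likelihood F test across 17432 genes, with Benjamini-Hochberg adjustment over all of them and a call at an adjusted p below 0.05. The filter on low counts passed 34 members: 31 of the 32 above 1 TPM, the exception being Ccl5, and Il19, Il6 and Ccl28 from below it. Between High and Low, 19 of 34 members were called, 7 higher and 12 lower in High, beside 41.4% of all genes tested, or 20.1% called higher and 21.2% called lower. The TPM of the High and Low libraries did not overlap for 19 members, beside 48.4% of all genes. From HiMed to High, 9 were called, 3 higher and 6 lower, beside 22.1% of all genes, or 10.6% higher and 11.6% lower. From MedLow to HiMed, 5 were called, 4 higher and 1 lower, beside 13.5%, or 7.38% higher and 6.12% lower. From Low to MedLow 6 were called, 3 higher and 3 lower, beside 6.60%, or 4.08% higher and 2.52% lower. Libraries did not overlap for 15 members between High and HiMed, beside 31.1% of all genes, for 11 between HiMed and MedLow, beside 28.6%, and for 17 between MedLow and Low, beside 24.1%. Median log2 fold changes of the members in these comparisons were -0.25, -0.34, 0.15 and -0.11, against -0.01, -0.01, -0.02 and -0.00079 for all genes. A call for any difference among the bins was made for 19 members, beside 41.8% of all genes.

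**Figure D1:**
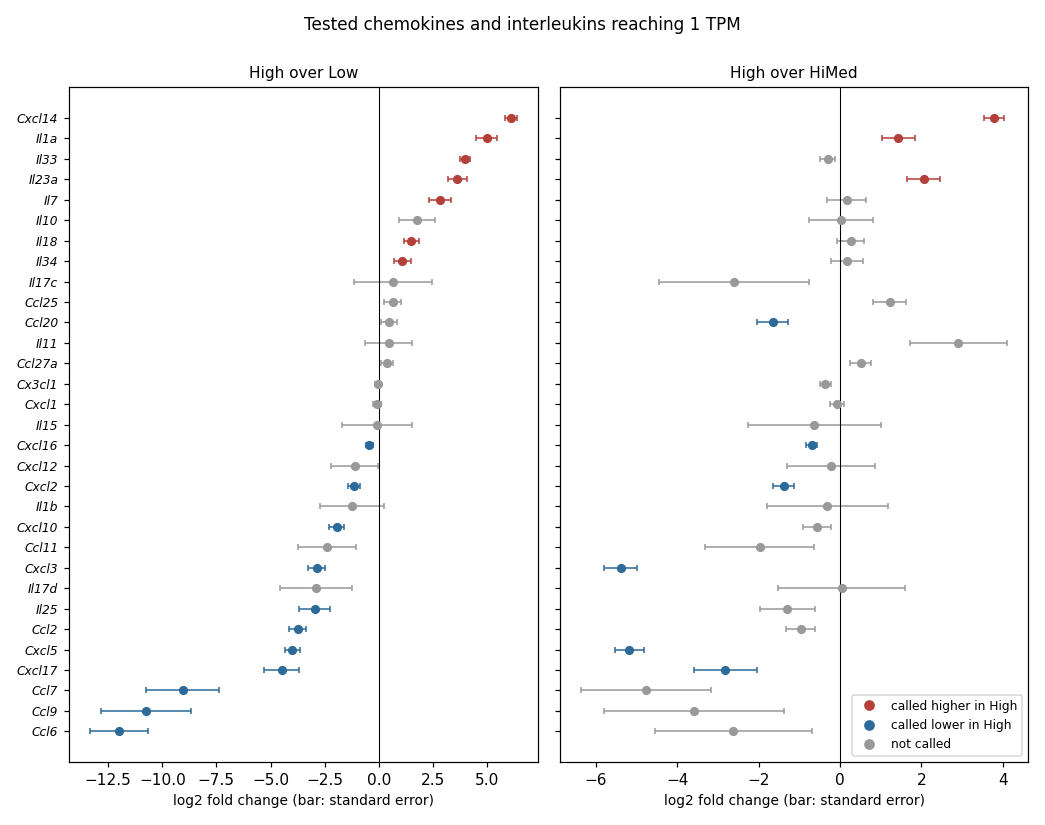
Log2 fold changes of the 31 tested members that reached 1 TPM, High over Low on the left and High over HiMed on the right; points are estimates from counts, bars their standard errors, and colour marks calls. Cxcl14 has the largest positive value in both panels, 6.09 and 3.78, while Cxcl3 and Cxcl5 have the most negative values against HiMed, -5.40 and -5.18.

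Of 5 neutrophil-attracting CXC chemokines, Cxcl1, Cxcl2, Cxcl3 and Cxcl5 were tested and Cxcl15 had no count. Of the 4, 3 were lower in High than in both Low and HiMed, beside 21.2% and 11.6% of all genes called lower in each. Cxcl5, a neutrophil attractant typical of epithelia, had 17.1, 38.6 and 38.2 TPM in Low, 43.4, 43.3 and 68.8 TPM in MedLow, 58.2, 73.4 and 93.1 TPM in HiMed, and 3.03, 2.19 and 1.56 TPM in High. Cxcl3, a close relative of Cxcl2, had 8.34, 12.3 and 13.3 TPM in Low, 39.6, 26.7 and 57.7 TPM in MedLow, 55.6, 67.9 and 79.8 TPM in HiMed, and 3.03, 1.47 and 0.940 TPM in High. In both genes every High library lay below all 9 others, and the highest values were in HiMed. Against HiMed, the log2 fold change in High was -5.18 ± 0.36 (SE) for Cxcl5 (edgeR adjusted p = 8.9e-07) and -5.40 ± 0.41 for Cxcl3 (edgeR adjusted p = 1.4e-06). Against Low it was -3.99 ± 0.35 for Cxcl5 (edgeR adjusted p = 8.6e-07) and -2.87 ± 0.38 for Cxcl3 (edgeR adjusted p = 3.9e-05). Cxcl3 was also 1.91 ± 0.34 higher on the log2 scale in MedLow than in Low (edgeR adjusted p = 0.00373), while the difference for Cxcl5 was 0.77 ± 0.30 (edgeR adjusted p = 0.177).

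Cxcl2, which acts on the same receptor, changed less. It had 20.9, 28.6 and 36.0 TPM in Low, 25.5, 19.3 and 46.7 TPM in MedLow, 41.4, 37.9 and 53.7 TPM in HiMed, and 8.33, 23.1 and 16.02 TPM in High. High lay below HiMed in every library but overlapped Low. Log2 fold changes in High were -1.39 ± 0.27 against HiMed (edgeR adjusted p = 0.00201) and -1.14 ± 0.27 against Low (edgeR adjusted p = 0.00336). The call against Low was lost when log2 TPM values were tested with limma, at adjusted p = 0.0765 with a pseudocount of 1 and 0.0724 with 0.1; over all alternatives the adjusted p ran from 2.2e-04 to 0.0765. Reads were shared between Cxcl2 and Cxcl3: the estimated count of Cxcl2 was not whole in 9 libraries, and in all 9 the sum of both genes was whole within 0.01. Their split is therefore uncertain in Low, MedLow and HiMed, but the summed count was 290, 522 and 361 in the High libraries and 2009, 1935 and 3655 in the HiMed libraries.

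Cxcl1, the neighbouring and closely related attractant, was not called lower in High. It had 79.5, 66.4 and 69.0 TPM in Low, 51.6, 40.4 and 49.8 TPM in MedLow, 72.3, 65.1 and 85.7 TPM in HiMed, and 72.5, 55.2 and 101 TPM in High. High overlapped both HiMed and Low, and MedLow lay below Low and HiMed in every library. Its log2 fold change in High against Low was -0.07 ± 0.17 (edgeR adjusted p = 0.786). HiMed over MedLow was 0.57 ± 0.17 (edgeR adjusted p = 0.0467), a call lost in 12 of 21 alternatives, with adjusted p between 0.00890 and 0.181. In 10 of the 12 a single library was left out: each Low, each MedLow, each HiMed library, or High replicate 1, with adjusted p of 0.0507 to 0.181. MedLow over Low was -0.56 ± 0.18 (edgeR adjusted p = 0.0828); with the replicate number as a block it was called (edgeR adjusted p = 0.0271), as it was without High replicate 3 (0.0172), and alternatives ran from 0.0124 to 0.286.

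**Figure D2:**
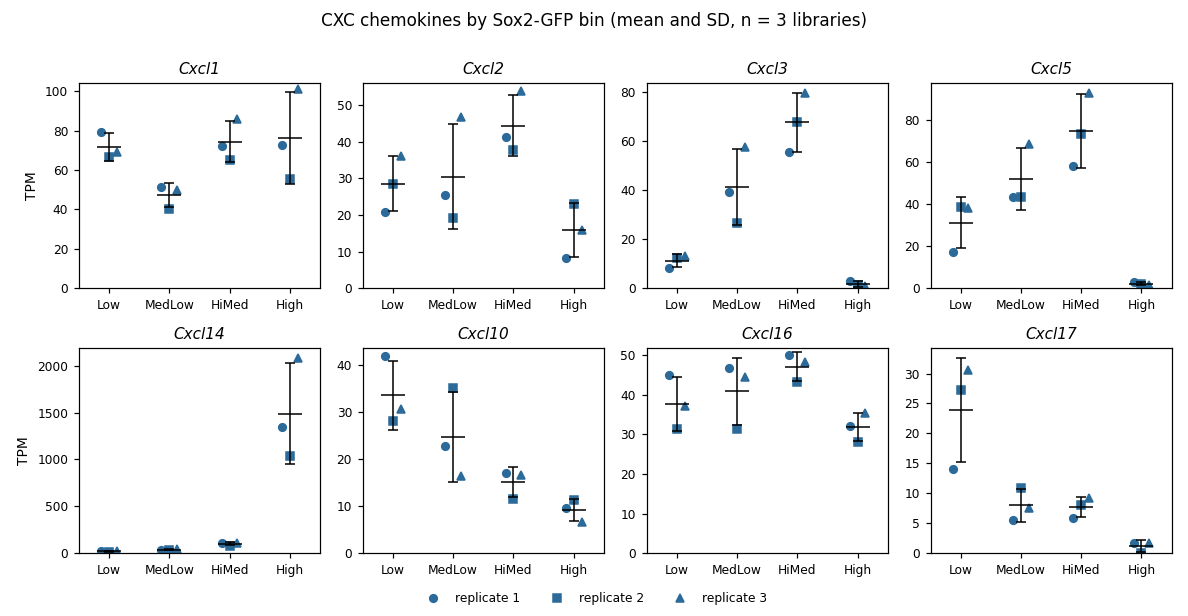
TPM of 8 CXC chemokines in each library, by reporter bin from Low to High; points are libraries, with shape for the replicate number, and bars the mean and SD of 3 libraries. Cxcl3 and Cxcl5 climb to a mean of 67.8 and 74.9 TPM in HiMed and drop to 1.81 and 2.26 TPM in High, while Cxcl14 reaches 1488 TPM in High.

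These genes stand side by side on chromosome 5, in the order Cxcl5, Ppbp, Pf4, Cxcl3, Cxcl15, Cxcl1 and Cxcl2 in RefSeq's GRCm38.p6 annotation. Ppbp, a platelet chemokine that is no member by its symbol, had 5.36, 4.41 and 14.5 TPM in Low, 44.5, 45.2 and 128 TPM in MedLow, 79.4, 152 and 281 TPM in HiMed, and 7.50, 16.2 and 3.68 TPM in High. It was thus high in the same bins as Cxcl3 and Cxcl5, at -4.31 ± 0.67 for High over HiMed (edgeR adjusted p = 4.5e-04) and 3.18 ± 0.65 for MedLow over Low (edgeR adjusted p = 0.00948). Pf4, the other platelet chemokine, averaged at most 1.63 TPM in any bin, and Cxcl15 had 0 counts. The neighbours at the end of the row, Cxcl1 and Cxcl2, had means of 76.2 and 15.8 TPM in High, where Cxcl5 and Cxcl3 averaged 2.26 and 1.81 TPM.

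**Figure D3:**
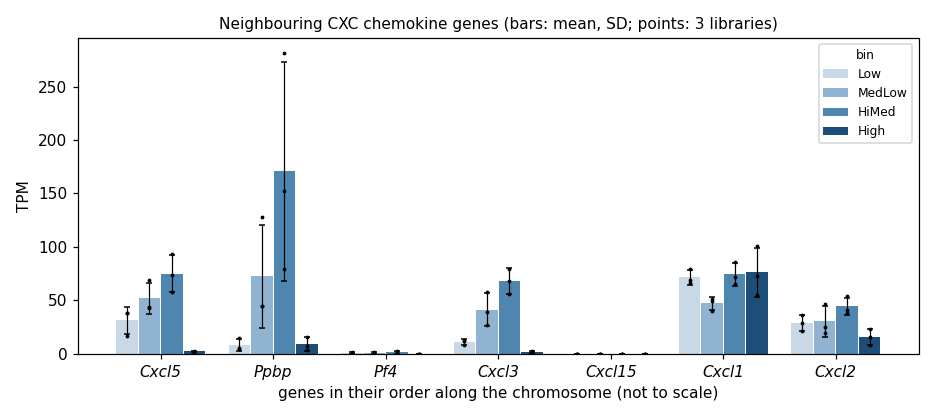
Mean TPM with SD (bars) and the 3 libraries (points) of 7 neighbouring genes in their order on chromosome 5, not to scale, by reporter bin from light (Low) to dark (High). Cxcl5, Ppbp and Cxcl3 have low High bars beside their HiMed bars, whereas Cxcl1 averages 74.4 TPM in HiMed and 76.2 TPM in High.

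Suprabasal keratinocyte markers moved with the HiMed-to-High drop: 7 of 7 were lower in High, beside 11.6% of all genes. Their sums were 4410 to 6592 TPM in High and 14825 to 34572 TPM in HiMed, and all 7 were detected in every bin. High over HiMed was -3.31 for Krt4 and -3.52 for Krt13 on the log2 scale. From Low to MedLow, 4 of 7 were higher, beside 4.08% of all genes, with sums of 31096 to 34342 TPM in MedLow and 9883 to 11365 TPM in Low. From MedLow to HiMed, where the means of Cxcl3 and Cxcl5 rose without a call, none was higher and 1 was lower. The markers' sum averaged 33010 TPM in MedLow and 25522 TPM in HiMed, with a median log2 fold change of -0.33. Their part in the chemokine values was not tested.

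The 250 bases before the RefSeq transcription start were read for 50 of the 70 members and 19 of the 32 above 1 TPM, all in build GRCm38.p6. The windows of the 3 neighbours are shown because Cxcl1, which was not called lower in High, and Cxcl3, which was, hold the same match. Those of Ccl20 and Cxcl10 are shown for comparison, since these hold the motif too, and Ccl9, which also holds it, is not shown. Cxcl5 is not among the members with a match, which was sought only in the 19 with a window. Ccl20 had its highest mean in HiMed, as Cxcl3 did, while Cxcl10 decreased along the bins. Capitals mark matches, on either strand, to the NF-kB consensus and to the AP-1 consensus TGANTCA. In Cxcl3, Cxcl1 and Cxcl2 a pair of matches to the NF-kB consensus, shifted by 1 base, overlap in a single run of capitals that begins 73, 71 and 97 bases before the start.
Cxcl3, chr5:90785851-90786100, plus strand: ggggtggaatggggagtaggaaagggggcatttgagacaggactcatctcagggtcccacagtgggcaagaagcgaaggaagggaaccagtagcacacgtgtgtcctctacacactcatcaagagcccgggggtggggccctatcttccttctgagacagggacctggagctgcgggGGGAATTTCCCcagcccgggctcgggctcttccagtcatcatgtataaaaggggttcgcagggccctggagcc
Cxcl1, chr5:90890995-90891244, plus strand: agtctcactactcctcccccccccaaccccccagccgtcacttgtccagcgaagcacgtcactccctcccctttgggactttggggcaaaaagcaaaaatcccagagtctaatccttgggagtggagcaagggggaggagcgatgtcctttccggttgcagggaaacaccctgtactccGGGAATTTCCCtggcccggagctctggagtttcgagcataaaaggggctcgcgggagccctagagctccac
Cxcl2, chr5:90903649-90903898, plus strand: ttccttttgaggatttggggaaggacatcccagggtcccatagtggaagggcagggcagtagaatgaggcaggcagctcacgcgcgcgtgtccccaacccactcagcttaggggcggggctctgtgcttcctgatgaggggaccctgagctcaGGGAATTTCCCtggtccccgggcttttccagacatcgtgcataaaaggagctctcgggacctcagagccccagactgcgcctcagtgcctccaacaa
Ccl20, chr1:83116516-83116765, plus strand: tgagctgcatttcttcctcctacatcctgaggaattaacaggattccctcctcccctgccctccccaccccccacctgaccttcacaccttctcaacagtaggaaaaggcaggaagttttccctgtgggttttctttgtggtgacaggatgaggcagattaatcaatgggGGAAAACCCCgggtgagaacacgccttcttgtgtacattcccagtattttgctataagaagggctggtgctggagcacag
Cxcl10, chr5:92348890-92349139, minus strand: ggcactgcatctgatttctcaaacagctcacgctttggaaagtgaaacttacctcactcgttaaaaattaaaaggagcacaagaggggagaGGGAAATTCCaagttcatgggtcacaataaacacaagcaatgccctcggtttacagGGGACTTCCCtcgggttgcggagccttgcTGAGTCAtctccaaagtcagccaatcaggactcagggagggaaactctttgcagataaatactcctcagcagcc
The NF-kB consensus occurred in 6 of the 24 windows of members above 1 TPM (those of Cxcl1, Cxcl2, Cxcl3, Cxcl10, Ccl9 and Ccl20) and in 3.90% of all 32851 promoter windows of the same length. The AP-1 consensus occurred in 5 of the 24 (Ccl9, Ccl27a, Cxcl10, Il1a and Il11) and in 6.75% of all windows. In Ccl20 the NF-kB match began 80 bases before the start; in Cxcl10 a pair of separate matches began 159 and 103 bases before it, with an AP-1 match at 74. No marked matches overlapped other than the shifted pairs.

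Of 15 tested NF-kB feedback and target genes, 1 was higher and 7 were lower in High than in Low, beside 20.1% and 21.2% of all genes. Their median was -0.33. Tnip1 was 1.30 higher, while Icam1 fell by 4.40, Zc3h12a by 1.12 and Nfkbia by 1.02 on the log2 scale. Of 20 immediate early genes, which respond within minutes to stimuli such as tissue dissociation, 2 were higher and 10 lower, beside the same shares of all genes. Their median was -0.34. Their sums were 19759 to 22800 TPM per High library and 20328 to 24247 TPM per Low library, with Myc at -2.71, Fosl1 at -2.57, Socs3 at -1.90 and Egr3 at 1.19 among those called. How far the dissociation contributed to the chemokine levels was not tested.

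Cxcl14, a chemokine made constitutively by epithelia, had the highest mean of the 70 members in the High bin and increased at every step of brightness. Cxcl1 had the highest mean in Low, at 71.6 TPM, and Il33 in MedLow and HiMed, at 101 and 389 TPM. Cxcl14 had 17.8, 14.8 and 24.4 TPM in Low, 37.7, 32.9 and 43.4 TPM in MedLow, 110, 79.1 and 112 TPM in HiMed, and 1345, 1034 and 2087 TPM in High. No library overlapped that of a neighbouring bin. The log2 fold change was 6.09 ± 0.28 for High over Low (edgeR adjusted p = 2.4e-09), 3.78 ± 0.25 for High over HiMed (edgeR adjusted p = 6.7e-07), 1.28 ± 0.23 for HiMed over MedLow (edgeR adjusted p = 0.00192) and 1.03 ± 0.23 for MedLow over Low (edgeR adjusted p = 0.0155). The last call was lost without Low replicate 1, Low replicate 2 or MedLow replicate 3, at edgeR adjusted p of 0.0611, 0.0709 and 0.0649, within a range of 7.6e-05 to 0.0709 over its alternatives.

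Of 14 taste bud markers, 7 were higher and 4 lower in High than in Low, beside 20.1% and 21.2% of all genes. Between High and HiMed 7 were higher and 5 lower in High, beside 10.6% and 11.6%. Between HiMed and MedLow 7 were higher and none lower in HiMed, beside 7.38% and 6.12%. Between MedLow and Low, where Cxcl14 was higher in MedLow, none was higher and 3 were lower, beside 4.08% and 2.52%. The markers' median log2 fold change there was -0.53. Their sums ran from 2636 to 4891 TPM in High, 1052 to 1199 TPM in HiMed, 397 to 687 TPM in MedLow and 692 to 935 TPM in Low. Shh, made by taste precursor cells, averaged 83.2 TPM in High and 0.0780 TPM in Low, and all 14 were detected in every bin. Gnat3, the G protein of taste receptor cells, and Snap25, a synaptic protein of taste cells, were lower in High than in Low, at -2.12 and -2.29 on the log2 scale. The part of these cells in the Cxcl14 level was not tested.

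The interferon-induced Cxcl10 decreased along the bins. It had 41.9, 28.0 and 30.7 TPM in Low, 22.7, 35.2 and 16.4 TPM in MedLow, 17.1, 11.4 and 16.7 TPM in HiMed, and 9.60, 11.3 and 6.54 TPM in High. High lay below Low and HiMed in every library, although neighbouring bins were not called apart. High over Low was -1.94 ± 0.35 (edgeR adjusted p = 4.6e-04). Its relatives Cxcl9 and Cxcl11 had means under 1 TPM in every bin. Cxcl9 reached 1.34 TPM in Low replicate 1, and of the 105 Cxcl9 counts found in Low all came from replicate 1.

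Cxcl17, a mucosal chemokine of glands and airways, had 14.1, 27.2 and 30.6 TPM in Low, 5.47, 10.9 and 7.55 TPM in MedLow, 5.87, 8.01 and 9.13 TPM in HiMed, and 1.76, 0 and 1.75 TPM in High. Low lay above and High below every library of the other bins. High over Low was -4.48 ± 0.82 (edgeR adjusted p = 5.8e-04) and High over HiMed -2.82 ± 0.78 (edgeR adjusted p = 0.0191). The second call was lost without HiMed replicate 3, at edgeR adjusted p = 0.0501, and in a fit of the 6 libraries of those bins alone, at 0.144, within a range of 4.6e-04 to 0.144; without High replicate 2 the values were -3.88 for High over Low and -2.22 for High over HiMed. Without that replicate, MedLow over Low was called as well, at -1.50 (edgeR adjusted p = 0.0284; 0.0218 to 0.589 over the alternatives, 0.302 with all libraries).

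Markers of the von Ebner glands, the salivary glands that empty into the papilla, moved in the same direction as Cxcl17 between High and Low but not between High and HiMed. Of 6 such markers 5 were lower in High than in Low, beside 21.2% of all genes. Their sums were 11.1, 137 and 20.9 TPM in the High libraries and 348, 1642 and 1178 TPM in the Low libraries. None of the 6 was at 0 in either bin. Bpifb1 averaged 19.7 TPM in High and 386 TPM in Low, and Lipf 13.4 and 336 TPM. Between High and HiMed, 3 of the 6 were higher and 1 lower in High, beside 10.6% and 11.6% of all genes. The median log2 fold change of the 6 was 2.06, and their mean sums were 56.4 TPM in High and 25.4 TPM in HiMed. The part of gland cells in the Cxcl17 level was not tested.

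Cxcl16, a transmembrane chemokine that binds Cxcr6, and Cx3cl1, the membrane-anchored fractalkine, stayed within narrow limits. Cxcl16 averaged 37.7 ± 6.83, 40.8 ± 8.38, 47.1 ± 3.57 and 31.8 ± 3.61 TPM in the Low, MedLow, HiMed and High bins. It was lower in High than in HiMed by -0.70 ± 0.15 on the log2 scale (edgeR adjusted p = 0.00338), with no overlap. High over Low was -0.43 ± 0.15 (edgeR adjusted p = 0.0300), with overlapping libraries. That call was lost in 7 of 21 alternatives, among them leaving out Low replicate 1 (edgeR adjusted p = 0.143), Low replicate 3 (0.0955), High replicate 2 (0.0933) or High replicate 3 (0.0726), and adjusted p ran from 0.00416 to 0.313.

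Cx3cl1 averaged 20.9 ± 5.17, 18.4 ± 3.19, 24.6 ± 2.13 and 21.5 ± 4.44 TPM in the same order, and was called in none of the 4 comparisons. HiMed over MedLow was 0.38 ± 0.14 (edgeR adjusted p = 0.0899). It was called only with library-size scaling (edgeR adjusted p = 0.0468, in a range of 0.0468 to 0.332). High over Low was -0.03 ± 0.14 (edgeR adjusted p = 0.885). High over HiMed was -0.36 ± 0.14 (edgeR adjusted p = 0.0768) and was called with the replicate block (edgeR adjusted p = 0.0474; 0.0474 to 0.542 over the alternatives). Cxcl12, the homeostatic ligand of Cxcr4, averaged 1.05 ± 0.508 TPM in Low and at most 0.599 TPM in any other bin, without a call.

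Of 9 tested CC chemokines, 4 were lower in High than in Low and none was higher, beside 21.2% and 20.1% of all genes. Ccl2, the main attractant of monocytes, decreased step by step. It had 75.0, 27.9 and 39.2 TPM in Low, 25.8, 13.96 and 14.3 TPM in MedLow, 7.72, 7.10 and 7.28 TPM in HiMed, and 3.44, 3.44 and 3.40 TPM in High. No library overlapped a neighbouring bin. The log2 difference of High from Low was -3.74 ± 0.39 (edgeR adjusted p = 3.9e-06), HiMed over MedLow -1.43 ± 0.36 (edgeR adjusted p = 0.0169) and MedLow over Low -1.34 ± 0.35 (edgeR adjusted p = 0.0360). High over HiMed, at -0.97 ± 0.37, missed the threshold (edgeR adjusted p = 0.0754) and passed it with the replicate block (edgeR adjusted p = 0.0229; 0.0229 to 0.187 over the alternatives); it also passed without Low replicate 1 (0.0347) or Low replicate 2 (0.0400).

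Single libraries decided the smaller Ccl2 steps. MedLow over Low was -0.78 without Low replicate 1 (edgeR adjusted p = 0.252), and its call was also lost without Low replicate 3 (0.0591), MedLow replicate 2 (0.148), MedLow replicate 3 (0.159) or HiMed replicate 3 (0.0520), in a range of 0.00449 to 0.252. HiMed over MedLow lost its call without MedLow replicate 1 (0.0942), HiMed replicate 1 (0.0532) or HiMed replicate 3 (0.0607), in a range of 0.00204 to 0.0942. Ccl7, the monocyte attractant encoded beside Ccl2 on chromosome 11, had 5.78, 2.64 and 3.11 TPM in Low, 3.54, 1.85 and 0.819 TPM in MedLow, 0, 0.412 and 0.184 TPM in HiMed, and 0 in all 3 High libraries. High had no Ccl7 count, and its level was at least 84.0-fold lower than in Low when set against 3 counts over the 3 High libraries (edgeR adjusted p = 0.00112). Against HiMed it was not called (edgeR adjusted p = 0.0539), except with DESeq2 (adjusted p = 0.0267) and without HiMed replicate 1 (edgeR adjusted p = 0.0192), in a range of 0.0192 to 0.655.

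Ccl6 and Ccl9, neighbouring chemokines typical of macrophages and other myeloid cells in mice, were nearly confined to Low. Ccl6 had 13.4, 25.4 and 22.3 TPM in Low, 0, 0.175 and 0.280 TPM in MedLow, 0, 0.143 and 0 TPM in HiMed, and 0 in High. Ccl9 had 1.53, 16.8 and 4.07 TPM in Low, a single value of 0.125 TPM in MedLow replicate 3, another of 0.0595 TPM in HiMed replicate 2, and 0 elsewhere. Its counts in Low spread less than its TPM, at 125, 211 and 150 in libraries of 43.1 M, 25.7 M and 38.6 M. Every Low library lay above all 9 others for both genes. Set against 3 counts over the High libraries, Ccl6 was at least 571-fold lower in High than in Low (edgeR adjusted p = 2.0e-05) and Ccl9 at least 229-fold lower (edgeR adjusted p = 0.00134). From Low to MedLow, Ccl6 fell by 6.84 on the log2 scale (SE 0.93, edgeR adjusted p = 1.0e-03).

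For Ccl9, MedLow over Low was -5.98 ± 1.52 (edgeR adjusted p = 0.0390). This call was lost with DESeq2 (adjusted p = 0.185) and without Low replicate 1, 2 or 3 or MedLow replicate 1 or 2, at edgeR adjusted p of 0.0777, 0.182, 0.0930, 0.117 and 0.111, in a range of 0.00222 to 0.185. The fitted value was -10.77 without MedLow replicate 3, the only MedLow library with counts. For Ccl6 the corresponding value without MedLow replicate 3 was -8.23. Ccl5, an attractant of T cells that shares this stretch of chromosome 11, averaged 1.58 ± 1.01 TPM in Low and at most 0.389 TPM elsewhere, with 0 in High, and did not pass the count filter.

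Leukocyte markers were called in both directions between High and Low. Of 11 tested, 2 were higher and 4 lower in High than in Low, beside 20.1% and 21.2% of all genes. Their median log2 fold change was -1.84. The median was -1.94 for MedLow over Low, where none was called. The 20 markers summed to 162 to 487 TPM per High library and 69.5 to 101 TPM per Low library. Of the 20, 9 were at 0 in High and 3 in Low. Lyz2, a lysozyme of myeloid cells and some epithelia, averaged 260 TPM in High and 43.5 TPM in Low. Cd74 and H2-Aa, genes of antigen presentation, averaged 0.461 and 0 TPM in High and 9.16 and 3.28 TPM in Low. Ptprc was at 0.0315 TPM in High and 0.0989 TPM in Low, with Adgre1 and Cd207 at 0 in High and at 0.0536 and 0.155 TPM in Low. Gland markers, given above, also separated Low from the other bins, at 348 to 1642 TPM in Low and at most 137 TPM in any other library. The part of leukocytes and gland cells in Ccl6, Ccl9, Ccl2 and Ccl7 was not tested.

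Among the fibroblast markers, 1 was higher and 1 lower of 3 tested in High against Low, beside 20.1% and 21.2% of all genes. The 8 markers summed to 4.13 to 13.0 TPM per High library and 548 to 603 TPM per Low library, with 3 of the 8 at 0 in High and 1 in Low. Dcn made up nearly all of it, at 7.55 TPM in High and 576 TPM in Low, while Col1a1, Col1a2 and Col3a1 stayed under 1 TPM in every bin. Ccl11, the eosinophil attractant, averaged 0.884 ± 1.22 TPM in High and 4.12 ± 6.39 TPM in Low, where replicate 1 alone had 11.5 TPM, and was not called (edgeR adjusted p = 0.181). Without High replicate 2 it was called, at -4.60 (edgeR adjusted p = 0.0423; 0.0423 to 0.684 over the alternatives). Among endothelial markers 2 of 4 tested were higher in High than in Low and none was lower, beside the same shares of all genes. They summed to 24.8 to 33.7 TPM in High and 6.39 to 9.85 TPM in Low, with 2 and 5 of the 8 at 0. Vwf led them at 24.7 TPM in High and 4.34 TPM in Low, with Emcn at 0 counts throughout. The part of fibroblasts and endothelial cells in Ccl11 and the other chemokines was not tested.

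Ccl20, the ligand of Ccr6 and an attractant of dendritic cells and lymphocytes at mucosal surfaces, peaked in HiMed. It had 9.78, 5.48 and 4.63 TPM in Low, 19.3, 13.7 and 11.1 TPM in MedLow, 35.8, 26.8 and 36.4 TPM in HiMed, and 16.1, 5.49 and 11.4 TPM in High. Each step from Low to HiMed separated all libraries, and High overlapped Low and MedLow. High over HiMed was -1.66 ± 0.38 (edgeR adjusted p = 0.00607), and High over Low was 0.48 ± 0.37 (edgeR adjusted p = 0.350). HiMed over MedLow was 0.96 ± 0.37 (edgeR adjusted p = 0.112; with the replicate block 0.0286, in a range of 0.0193 to 0.294). MedLow over Low was 1.18 ± 0.38 (edgeR adjusted p = 0.0907; with the replicate block 0.0145, in a range of 0.0145 to 0.304), and it was called without Low replicate 1, at 1.64 (edgeR adjusted p = 0.0343), or without High replicate 2 (0.0420).

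Ccl25, a chemokine of the thymus and small intestine, averaged 3.30 ± 0.461, 2.86 ± 1.16, 3.38 ± 0.868 and 8.91 ± 4.35 TPM along the bins, with 12.1, 10.7 and 3.94 TPM in the High libraries. High over HiMed was 1.22 ± 0.41 and stood at the threshold (edgeR adjusted p = 0.0502). It was called in 4 of 21 alternatives, among them without High replicate 3 (edgeR adjusted p = 0.0316), in a range of 0.0184 to 0.241. High over Low, at 0.64 ± 0.41, was not called (edgeR adjusted p = 0.238). Limma called it on log2(TPM + 1) (adjusted p = 0.0337) and on log2(TPM + 0.1) (0.0416), in a range of 0.0337 to 0.789. Ccl27a, the skin chemokine for memory T cells, averaged 22.3 ± 3.05, 13.8 ± 3.43, 18.5 ± 6.16 and 27.4 ± 8.19 TPM with no call. Its estimated count was not whole in 9 libraries, so reads were shared with other transcripts and its level is uncertain.

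**Figure D4:**
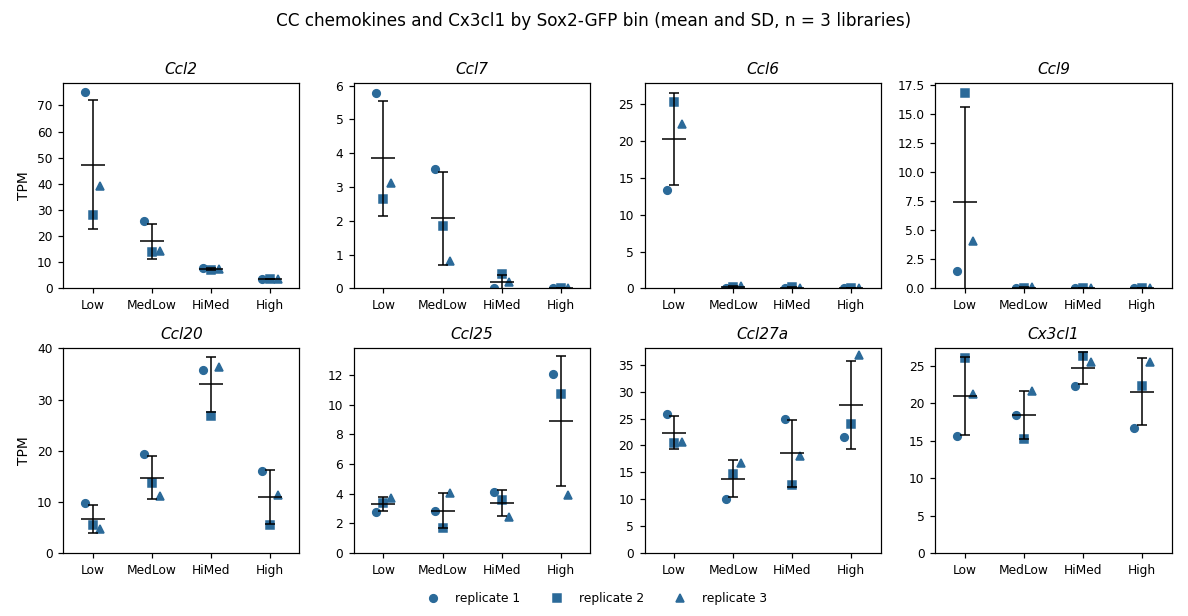
TPM of 7 CC chemokines and Cx3cl1 in each library, by reporter bin from Low to High; points are libraries, with shape for the replicate number, and bars the mean and SD of 3 libraries. Ccl2 falls to 3.43 TPM in High, Ccl6 and Ccl9 are high in Low alone, and Ccl20 peaks in HiMed at a mean of 33.0 TPM.

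Of the 4 interleukin-1 family members, Il33, Il1a and Il18 were higher in High than in Low, and Il1b was not called. Their summed level averaged 29.2 ± 4.57, 114 ± 26.1, 433 ± 52.4 and 442 ± 54.0 TPM along the bins. Il33, an alarm signal for type 2 immune cells, had 17.4, 17.6 and 25.2 TPM in Low, 107, 77.8 and 118 TPM in MedLow, 366, 372 and 428 TPM in HiMed, and 306, 399 and 299 TPM in High. The bins were separate up to HiMed, and High overlapped HiMed. MedLow over Low was 2.44 ± 0.20 (edgeR adjusted p = 8.3e-06) and HiMed over MedLow 1.85 ± 0.19 (edgeR adjusted p = 3.5e-05), while High over HiMed was -0.30 ± 0.19 (edgeR adjusted p = 0.279). Against Low, High was 3.99 ± 0.21 higher (edgeR adjusted p = 9.7e-09).

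Il1a, which signals through Il1r1, had 2.99, 1.45 and 2.80 TPM in Low, 4.34, 4.38 and 12.4 TPM in MedLow, 19.1, 25.6 and 47.9 TPM in HiMed, and 69.1, 85.8 and 117 TPM in High. No library overlapped a neighbouring bin. Against Low, the High value was 4.99 ± 0.49 (edgeR adjusted p = 2.3e-06) and HiMed over MedLow 2.03 ± 0.42 (edgeR adjusted p = 0.00584), or 2.70 without MedLow replicate 3. High over HiMed was 1.43 ± 0.40 (edgeR adjusted p = 0.0213), a call lost without HiMed replicate 1 (0.0719), HiMed replicate 2 (0.0774) or High replicate 3 (0.0838) and with robust estimation of the spread (0.0701), in a range of 3.9e-04 to 0.0838. MedLow over Low was 1.53 ± 0.46 (edgeR adjusted p = 0.0685) and was called with the replicate block (edgeR adjusted p = 0.0101; 0.00156 to 0.355 over the alternatives) and without HiMed replicate 1 (0.0491) or HiMed replicate 3 (0.0449).

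Il1b, the gene next to Il1a on chromosome 2 and the form secreted by activated myeloid cells, averaged 1.33 ± 0.397, 0.613 ± 0.301, 0.725 ± 0.989 and 0.700 ± 0.924 TPM along the bins. On the log2 scale, High over Low was -1.23 ± 1.50 (edgeR adjusted p = 0.565). Il18, processed by caspase-1 like Il1b, had 4.01, 7.48 and 4.56 TPM in Low, 3.66, 4.72 and 7.98 TPM in MedLow, 12.4, 9.11 and 14.9 TPM in HiMed, and 16.6, 12.7 and 18.4 TPM in High. The HiMed and High libraries lay above all Low and MedLow libraries. Between High and Low the log2 fold change was 1.50 ± 0.35 (edgeR adjusted p = 0.00330). HiMed over MedLow was 1.05 ± 0.34 (edgeR adjusted p = 0.0601) and was called with the replicate block (edgeR adjusted p = 0.0495; 0.0245 to 0.216 over the alternatives) and without MedLow replicate 3, at 1.42 (edgeR adjusted p = 0.0292).

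Of 7 tested genes that process interleukin-1 family precursors, 2 were higher and 2 lower in High than in Low. For all genes the shares were 20.1% and 21.2%. Casp8 was 1.00 higher and Pycard 0.51 higher on the log2 scale, Casp1 fell by 0.53, and the DNA sensor Aim2 had no count in High and 1.33 TPM in Low. Among 4 tested antagonists and binding proteins, Sigirr, an inhibitory receptor of the family, was 1.88 higher in High than in Low (edgeR adjusted p = 4.1e-04). Il1rn, the natural blocker of Il1r1, averaged 32.1 ± 14.9, 72.8 ± 20.7, 58.1 ± 6.72 and 27.5 ± 6.53 TPM along the bins and was 1.07 higher in MedLow than in Low (edgeR adjusted p = 0.00481).

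Il23a, the p19 subunit that joins p40 to form interleukin-23, had 0.732, 0.735 and 0.699 TPM in Low, 2.88, 1.40 and 1.46 TPM in MedLow, 2.33, 1.86 and 2.69 TPM in HiMed, and 10.3, 7.05 and 12.9 TPM in High. High lay above all other libraries. The fold change of High over Low, on the log2 scale, was 3.64 ± 0.43 (edgeR adjusted p = 1.4e-05) and High over HiMed 2.05 ± 0.40 (edgeR adjusted p = 0.00224). Il12b, which encodes p40, was below 1 TPM in every bin and did not pass the count filter. In the same families, Il11 averaged 1.40 ± 0.986 TPM in High and 0.155 ± 0.154 TPM in HiMed and was not called (edgeR adjusted p = 0.104), except in 4 of 20 alternatives that include leaving out HiMed replicate 3 (0.0430; 0.0125 to 0.295 over all). Il6 averaged 0.268 TPM in High and 0.196 TPM in Low.

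Il7, a growth factor of lymphocytes made by epithelia and stroma, had 0.684, 0.228 and 0.761 TPM in Low, 1.70, 1.25 and 0.506 TPM in MedLow, 5.92, 3.15 and 3.14 TPM in HiMed, and 4.47, 5.76 and 3.74 TPM in High. HiMed and High lay above every Low and MedLow library. In High against Low the log2 value was 2.83 ± 0.52 (edgeR adjusted p = 5.6e-04). HiMed over MedLow was 1.39 ± 0.49 (edgeR adjusted p = 0.0789) and was called in 4 of 21 alternatives, among them without Low replicate 2 (edgeR adjusted p = 0.0275), in a range of 0.0229 to 0.243. Il15, of the same receptor family, averaged at most 1.63 TPM in any bin, without a call.

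Il34, a ligand of Csf1r known from keratinocytes, averaged 3.76 ± 1.40, 10.1 ± 6.10, 8.98 ± 4.37 and 8.68 ± 4.23 TPM along the bins. The High over Low value was 1.08 ± 0.40 (edgeR adjusted p = 0.0437), with overlapping TPM. The call was lost in 13 of 21 alternatives, including the replicate block (edgeR adjusted p = 0.0615) and leaving out any Low library (0.0603 to 0.135), any MedLow library (0.0508 to 0.0604), HiMed replicate 3 (0.0559), High replicate 2 (0.136) or High replicate 3 (0.0832), with a range of 0.0212 to 0.136 over all. Counts and TPM ordered the libraries differently: HiMed replicate 1 had 98 counts and 13.97 TPM, and HiMed replicate 2 had 259 counts and 7.07 TPM. Csf1, the other Csf1r ligand, was lower in High than in Low, at -1.99 on the log2 scale (edgeR adjusted p = 2.0e-06).

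In the interleukin-17 family, Il25, the tuft cell signal for type 2 immunity, had means that decreased along the bins, although neighbouring bins were not called apart. It had 7.27, 2.36 and 5.96 TPM in Low, 3.70, 1.23 and 5.93 TPM in MedLow, 2.41, 1.25 and 1.55 TPM in HiMed, and 1.22, 0.647 and 0.387 TPM in High. Every High library lay below all others, with replicate 2 the lowest in Low, MedLow and HiMed. The log2 difference of High from Low was -2.97 ± 0.71 (edgeR adjusted p = 0.00424). Trpm5, a channel of type II taste cells and tuft cells, averaged 8.77 TPM in High and 28.4 TPM in Low, at -1.76 (edgeR adjusted p = 0.00150). It was singled out after its values were seen from the 14 taste bud markers, of which 7 were higher and 4 lower in High. The part of type II taste cells and tuft cells in the Il25 level was not tested.

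Il17c, an epithelial cytokine, averaged 3.34 ± 0.787 TPM in HiMed and at most 1.17 TPM in other bins, and Il17d averaged 1.79 ± 1.42 TPM in Low and at most 0.902 TPM elsewhere. Neither was called in any of the 4 comparisons. Il17c was called for High over HiMed without High replicate 2, the only High library with counts (edgeR adjusted p = 0.0398; 0.360 with it and 0.0267 to 0.533 over the alternatives). Il17d was called for HiMed over MedLow without HiMed replicate 2, the only HiMed library with counts (edgeR adjusted p = 0.0388, with 0.515 when it was kept and 0.0388 to 0.730 over the alternatives). For High over Low, Il17d (edgeR adjusted p = 0.186) was called with limma on log2(TPM + 1) (adjusted p = 0.0335), in a range of 0.0335 to 0.474.

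Il10, an anti-inflammatory cytokine, averaged 0.493 ± 0.317, 1.05 ± 0.910, 1.81 ± 1.09 and 1.96 ± 0.688 TPM along the bins, with every High library above every Low library and no call (edgeR adjusted p = 0.108). Limma called High over Low on log2(TPM + 1) (adjusted p = 0.0424) and on log2(TPM + 0.1) (0.0395), in a range of 0.0395 to 0.254. Il19, of the same family, had 0 counts in all High libraries and 30, 0 and 4 counts in Low. Its High over Low call (edgeR adjusted p = 0.0427) was lost in 13 of 19 alternatives, including the replicate block (0.0923) and leaving out any library other than Low replicate 2 or HiMed replicate 1 (0.0575 to 0.183). The range over all alternatives was 0.0182 to 0.194.

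**Figure D5:**
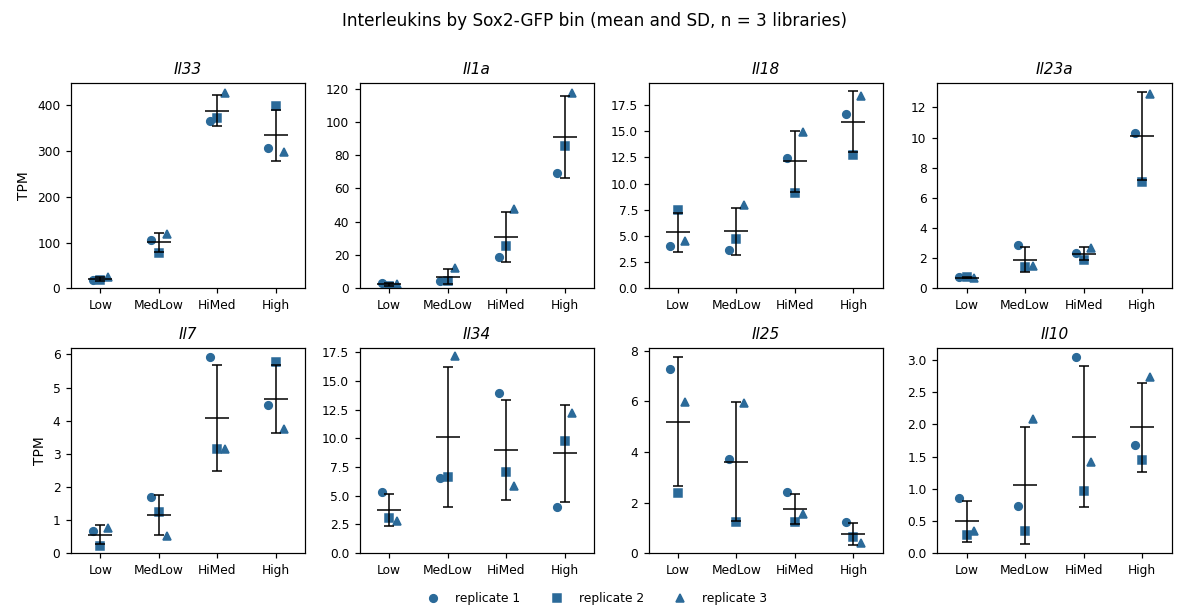
TPM of 8 interleukins in each library, by reporter bin from Low to High; points are libraries, with shape for the replicate number, and bars the mean and SD of 3 libraries. Il33 levels off between HiMed (389 TPM) and High (335 TPM), Il1a and Il23a are highest in High, and the means of Il25 fall along the bins.

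Receptors of some of these ligands were detected in the same epithelium. Of 23 chemokine receptors 9 were tested, and 3 were higher and 2 lower in High than in Low, beside 20.1% and 21.2% of all genes. Ackr3, a scavenging receptor of Cxcl12, had 68.4, 42.4 and 64.2 TPM in High and 16.3, 17.2 and 14.9 TPM in Low, a log2 difference of 1.59 ± 0.16 (edgeR adjusted p = 3.0e-06). Cxcr4, the signalling receptor of Cxcl12, was 1.61 ± 0.40 higher in High (edgeR adjusted p = 0.00563), and Ccr9, the receptor of Ccl25, 3.94 ± 1.18 higher (edgeR adjusted p = 0.0163). The level of Ccr9 was low, at a mean of 1.17 TPM in High and 0.0626 TPM in Low, where its counts were 0, 0 and 13. Cxcr2, the receptor of the neutrophil attractants, averaged 0.634 TPM in High and 0.0614 TPM in Low without a call, and Ccr6 had no count; both were singled out after their values were seen.

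Of 38 interleukin receptor genes 26 were tested, and 3 were higher and 12 lower in High than in Low, beside 20.1% and 21.2% of all genes. Their median was -0.30. Il17rd, a regulator of interleukin-17 and FGF signals, had 11.3, 8.83 and 19.3 TPM in High and 0.734, 1.07 and 0.830 TPM in Low, at 3.87 ± 0.27 (edgeR adjusted p = 1.1e-07). Il6ra, the interleukin-6 receptor, had 7.17, 8.67 and 7.73 TPM in High and 35.2, 30.9 and 35.7 TPM in Low, at -2.43 ± 0.09 (edgeR adjusted p = 5.8e-10). Neither pair of bins overlapped. Il22ra1, the receptor of Il22, was at -4.85 ± 1.13 (edgeR adjusted p = 0.00337) and Il12rb2, of interleukin-12, at -3.42 ± 1.16 (edgeR adjusted p = 0.0340). Il1rl1, the receptor of Il33, had 0 counts in all 12 libraries; it too was singled out after its values were seen.

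Among 14 tested cytokines of other families, 1 was higher and 4 were lower in High than in Low, beside 20.1% and 21.2% of all genes. Against HiMed, 2 were higher and 6 lower in High, beside 10.6% and 11.6%. Tnf had 38.6, 25.4 and 58.5 TPM in High and 11.9, 14.4 and 13.7 TPM in Low, without overlap, at 1.39 ± 0.30 (edgeR adjusted p = 0.00215). Csf3, a growth factor of neutrophils, had 1.41, 3.46 and 1.90 TPM in High and 12.5, 12.1 and 10.4 TPM in HiMed, at -2.46 ± 0.36 (edgeR adjusted p = 2.6e-04). Csf2, a growth factor of myeloid cells, had no count in High and 8.43, 3.09 and 3.91 TPM in HiMed, at least 99.4-fold lower when set against 3 counts over the High libraries (edgeR adjusted p = 0.00267). Both were thus low in High beside HiMed, as were Cxcl3 and Cxcl5.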

How the data were processed

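RNA of sorted papilla epithelial cells was sequenced in 12 libraries, 3 in each of 4 bins of Sox2GFP brightness. The deposited tables hold estimated counts per gene and TPM, made by the authors with Salmon 1.4.0 on mouse genome mm39, per the submitters' processing notes, which also name DESeq2 1.28.1. Estimated counts need not be whole and were rounded before testing. Levels in the text are the deposited TPM values, and fold changes come from the counts. Totals ran from 25.7 M to 55.6 M estimated counts per library, and the 35238 symbols that were not tested held 0.0339% of them.

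Counts were analysed with edgeR 4.0.16 in R 4.3.3: TMM scaling, filterByExpr with a minimum count of 10, glmQLFit and glmQLFTest over all 12 libraries with 1 term per bin, and Benjamini-Hochberg adjustment over 17432 genes. Standard errors were the fold change divided by the root of F. The common biological coefficient of variation was 0.366. Where a bin had no count, the bound was set against 3 counts over the bin, which covers counting error only. Members and gene lists were chosen with earlier results of these data known. Every member that reached 1 TPM was named; of each other list, up to 4 called genes a comparison with the largest fold changes and at least 1 TPM, and the most abundant markers. Trpm5, Pf4 and the markers named as at or near 0 were chosen after their values were seen. Alternatives were library-size scaling, DESeq2 1.42.0, other filters, a replicate block, limma 3.58.1 on log2(TPM + 1) and log2(TPM + 0.1), leaving out each library, a fit of the compared bins alone, and robust estimation of the spread, which was chosen after seeing the data.

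Replicate numbers were taken to pair the libraries, because the design text speaks of replicates as mouse pools from which the bins were sorted, although no label states that a number marks 1 pool. Deviations from the bin means were correlated between libraries of different bins over 9402 genes. The 18 pairs of libraries with the same number had correlations of 0.0447 to 0.382, of which 17 were over 0.1. The 36 other pairs lay between -0.208 and -0.00173. Since deviations from a bin mean cancel within the bin, positive values for same-numbered pairs force negative values among the others. The main fit held no term for the replicate number, so its p-values treat the libraries as independent and leave this pairing out. They measure the spread between the pools within the bins. The pairing entered only through the replicate block among the alternatives, and the calls it changed are given beside the genes.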

Additional observations from a re-analysis of the deposited data

How the results depend on the processing

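Over 136 gene-by-comparison results, 102 kept their call, or their lack of one, under every alternative run. The main fit called 19, 9, 5 and 6 members in the 4 comparisons, so most of the 136 were not called. Calls lost in at least 1 alternative were, for High against Low, those of Cxcl2, Cxcl16, Il19 and Il34. For High against HiMed they were those of Cxcl17 and Il1a, and for HiMed against MedLow those of Cxcl1 and Ccl2. For MedLow against Low they were those of Ccl2, Ccl9 and Cxcl14. Of 2807 alternative values 71 lost a call, 62 gained one, and 0 changed sign while called. Members called between HiMed and MedLow numbered 5, and 8 with DESeq2, while those called between MedLow and Low numbered 6, and 10 without a filter on low counts, 6 higher and 4 lower. With the replicate block, 17 members were called for High against Low, 11 for High against HiMed, 7 for HiMed against MedLow and 9 for MedLow against Low; the pairing changed no other call than those given beside the genes. Leaving out single libraries gave 16 to 20, 8 to 10, 3 to 5 and 4 to 8 in these comparisons, 17 to 20 for any difference, and 29 to 32 members reaching 1 TPM. The count of 3 between HiMed and MedLow came without MedLow replicate 1, HiMed replicate 1 or HiMed replicate 3. High against Low split into 8 higher and 9 lower with limma on log2(TPM + 0.1), a scale that moved the median of all genes to 0.17, and HiMed against MedLow into 4 and 2. MedLow against Low split into 6 higher and 3 lower with DESeq2. The causes were not tested.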

Other observations

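The interleukin-36 genes, which the files name Il1f6, Il1f8 and Il1f9, and their antagonist Il1f5 lie outside the naming rule and were singled out after their values were seen. They are keratinocyte cytokines of the interleukin-1 family. Il1f9 averaged 13.3, 29.6, 16.1 and 2.54 TPM in the Low, MedLow, HiMed and High bins, and was lower in High than in HiMed by a log2 fold change of -2.79 ± 0.49 (SE, edgeR adjusted p = 0.00113) and than in Low by one of -2.59 ± 0.49 (edgeR adjusted p = 7.5e-04). Il1f5 averaged 7.06, 11.8, 13.6 and 5.12 TPM, at -1.30 ± 0.30 for High over HiMed (edgeR adjusted p = 0.00659). Il1f6 averaged 4.01, 8.26, 7.30 and 1.71 TPM, and Il1f8 0.717, 1.17, 3.27 and 4.36 TPM; High was not called apart from Low for either (edgeR adjusted p = 0.290 and 0.103), although the means of Il1f8 increased at every step and each of its High libraries lay above each of its Low libraries.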
